A study of Mus musculus with 8 samples.

Results

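The 10 enzyme genes that finish collagen were read in mouse liver: the lysyl oxidases Lox, Loxl1, Loxl2, Loxl3 and Loxl4, the lysyl hydroxylases Plod1, Plod2 and Plod3, and the prolyl 4-hydroxylase subunits P4ha1 and P4ha2. They were taken by gene symbol, as a set proposed with earlier results of these data known, and all 10 were found among the 17164 genes of the table. RNA came from whole liver of male C57BL/6 mice at 22 weeks of age, with 2 sequenced livers in each of 4 groups of 6 mice. Model mice were injected into the abdomen with the liver carcinogen diethylnitrosamine (DEN, 0.67%) at 2 weeks of age, and from 8 weeks on with the hepatotoxin carbon tetrachloride (CCl4, 20% in olive oil). DWYG-M and DWYG-H mice carried the same DEN and CCl4 exposure and were also given Diwu Yanggan capsules (DWYG), a herbal preparation, from 17 weeks, at 1 (DWYG-M) or 2 (DWYG-H) times the dose that corresponds to clinical use. The control mice were given saline in place of DEN, and it is not stated whether they received olive oil in place of CCl4, so an effect of the vehicle or its injection cannot be told apart from model vs control. Every DWYG liver is thus also an injured liver, and CCl4 continued during the treatment.

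Fibrillar collagen gains its strength after translation. In the endoplasmic reticulum, prolyl 4-hydroxylases modify proline so that the triple helix is stable, and lysyl hydroxylases modify lysine, all with iron, oxygen and ascorbate. Outside the cell, copper-dependent lysyl oxidases oxidise lysine and hydroxylysine to aldehydes that condense into crosslinks. In injured liver these crosslinks form in scar made mainly by activated stellate cells and portal fibroblasts, and crosslinked scar is known to be stiffer and slower to be degraded.

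Library totals lay between 17345627 and 19191382 estimated counts. Between 10101 and 11556 genes per library reached 1 FPKM (fragment counts divided by transcript length and by library size, a scale on which levels of genes of unequal length can be compared). The model libraries correlated less with each other (r = 0.961 across genes, log2 CPM) than replicates of the other groups did (0.978 to 0.984). Model replicate 1 correlated at 0.963 to 0.976 with the DWYG libraries, all above its value with model replicate 2, and model replicate 2 at 0.946 to 0.966 with them. Every comparison with the model rests on these 2 libraries. Of 11606 genes tested in model vs control with edgeR's quasi-likelihood test, 2582 changed at an adjusted p under 0.05, and 68.0% of them were higher. That share was 80.5% when only those groups were fitted, 91.7% to 92.1% on log2 FPKM values and 97.5% on log2 TPM values, where the median gene shifted by 0.50. The hepatocyte markers had a summed FPKM of 63841 to 100469 in model, 65632 to 89929 in DWYG-M, 78729 to 88620 in DWYG-H and 58676 to 65472 in control livers, so the libraries hold the hepatocyte RNA of the labelled tissue.

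The lysyl oxidases were the family that rose in model vs control: all 5 members were called higher, together with 1 of 3 lysyl hydroxylases and 0 of 2 prolyl 4-hydroxylases. In all, 6 of 10 members were higher, against 15.1% of all genes tested, and 0 were lower, against 7.12%. At an unadjusted p under 0.05 the count was 7 of 10, with P4ha2 lower as well, against 35.9% of all genes, and DESeq2 called 6 higher and 0 lower. The median log2 fold change over the 10 members was 1.84, and that over all genes tested was −0.01. All 10 members passed the filter on low values, but Lox reached 1 FPKM only in the 2 model libraries, Loxl3 and Plod2 only in model and DWYG-H libraries, and Loxl1 and Loxl4 only in model, DWYG-M and DWYG-H libraries. Loxl2 reached 1 FPKM in only 1 control library, fewer than the 2 that the filter needs. Thus all 6 members called higher entered the test only through groups where they were high. The count of 6 is a description that is not set against the share of all genes as support. With no filter on low values 6 were called higher as well.

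Lox (Entrez 16948), the founding lysyl oxidase of collagen and elastin, had 2.07 and 2.28 FPKM in model, 0.68 and 0.61 in DWYG-M, 0.67 and 0.83 in DWYG-H, and 0.13 and 0.08 in control livers. The model livers were highest, the DWYG livers lay between them and the controls, and the model, DWYG and control ranges did not overlap. Lox rose 17.1-fold in model vs control, a log2 fold change of 4.09 with SE 0.32 and adjusted p = 4.8e-04. The control value rests on 10 and 6 estimated counts. The call stood in all 13 other fits that included Lox, with adjusted p of up to 0.00945.

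Loxl1 (Entrez 16949), which acts mainly on elastin, had 2.82 and 4.40 FPKM in model, 1.12 and 2.30 in DWYG-M, 1.30 and 2.18 in DWYG-H, and 0.29 and 0.31 in control livers. All injured livers were above both controls, and the 4 DWYG livers were below both model livers. It rose by 3.34 in model vs control (SE 0.50, adjusted p = 0.00389). Loxl2 (Entrez 94352), an oxidase with scavenger receptor domains that crosslinks basement membrane collagen IV, had 4.35 and 7.66 FPKM in model, 3.34 and 3.09 in DWYG-M, 3.06 and 3.09 in DWYG-H, and 0.74 and 1.02 in control livers. Here model replicate 2 stood well above replicate 1, while the DWYG livers were nearly alike. It rose by 2.53 in model vs control (SE 0.35, adjusted p = 0.00294).

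Loxl3 (Entrez 16950), a close relative of Loxl2, had 0.95 and 1.36 FPKM in model, 0.81 and 0.91 in DWYG-M, 0.70 and 1.06 in DWYG-H, and 0.43 and 0.45 in control livers. It was the least changed lysyl oxidase, with a rise of 1.15 in model vs control (SE 0.34, adjusted p = 0.0472). That call was lost without control replicate 1, control replicate 2 or model replicate 2 (adjusted p of 0.183, 0.154 and 0.213) and when only the groups compared were fitted (0.0930), and the adjusted p ranged between 0.0124 and 0.213 over all settings. In the GENCODE M21 annotation, 11.6% of the Loxl3 exonic bases overlap Htra2 on the other strand. Whether reads were counted by strand is not given in the sources used here, so its level is uncertain. Loxl4 (Entrez 67573), the remaining oxidase with scavenger receptor domains, had 4.76 and 8.44 FPKM in model, 6.28 and 2.15 in DWYG-M, 7.92 and 5.67 in DWYG-H, and 0.50 and 0.38 in control livers. Every injured liver exceeded both controls, but the DWYG and model livers overlapped. Loxl4 rose by 3.67 in model vs control (SE 0.58, adjusted p = 0.00494), which is 12.7-fold, and the adjusted p was 0.0519 without control replicate 2, the highest of its settings.

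Plod2 (Entrez 26432), the hydroxylase of telopeptide lysines whose products give the hydroxylysine-derived crosslinks typical of scar, was the only lysyl hydroxylase called. It had 1.69 and 1.57 FPKM in model, 0.74 and 0.80 in DWYG-M, 0.98 and 1.00 in DWYG-H, and 0.19 and 0.16 in control livers. The 4 groups did not overlap. Plod2 rose by 2.83 in model vs control (SE 0.29, adjusted p = 0.00110), and the call stood in all 13 other fits that included it (adjusted p of up to 0.0177).

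Plod1 and Plod3 were the most abundant of the 10 genes in every group and were not called. Plod1 (Entrez 18822), which hydroxylates lysines of the triple helix, had 19.7 and 20.9 FPKM in model, 19.5 and 18.2 in DWYG-M, 17.0 and 17.9 in DWYG-H, and 13.9 and 15.0 in control livers. Plod3 (Entrez 26433), which also glycosylates hydroxylysine, had 10.9 and 14.2 FPKM in model, 10.4 and 9.52 in DWYG-M, 9.26 and 10.5 in DWYG-H, and 7.29 and 8.92 in control livers. Both were higher in FPKM in each model liver than in each control liver. Their log2 fold changes in model vs control were 0.22 (adjusted p = 0.356) and 0.37 (adjusted p = 0.277). Both were called higher on log2 TPM values (0.78 and 0.88), where P4ha1 was called as well (0.85), each with the shift of the median gene in it. On log2(FPKM + 0.1) values both were called too, and Plod1 also on log2(FPKM + 1). The median gene shifted by 0.25 and 0.21 on these 2 scales, and these calls hold that shift as well. In the annotation, 11.7% of the Plod3 exonic bases overlap Znhit1 on the other strand.

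The prolyl 4-hydroxylase subunits were not called in model vs control. P4ha1 (Entrez 18451), the main catalytic subunit, had 8.64 and 6.39 FPKM in model, 5.88 and 3.81 in DWYG-M, 4.78 and 4.58 in DWYG-H, and 3.83 and 5.87 in control livers. P4ha2 (Entrez 18452), the alternative catalytic subunit, had 2.83 and 2.26 FPKM in model, 3.29 and 1.76 in DWYG-M, 1.92 and 2.67 in DWYG-H, and 3.25 and 4.22 in control livers. In FPKM, P4ha1 was higher and P4ha2 lower in both model livers than in both controls, and 9 of 10 members were higher without overlap, against 47.1% of all genes, and 1 lower, against 11.9%. The called members are among these 9 and passed the filter only through groups where they were high. This count is thus a description and is not set against the share of all genes as support. In model vs control P4ha1 gave 0.33 (95% interval −0.31 to 0.98, adjusted p = 0.438) and P4ha2 gave −0.83 (95% interval −1.61 to −0.06, adjusted p = 0.114). P4ha2 was the only member with a negative value there.

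**Figure D1:**
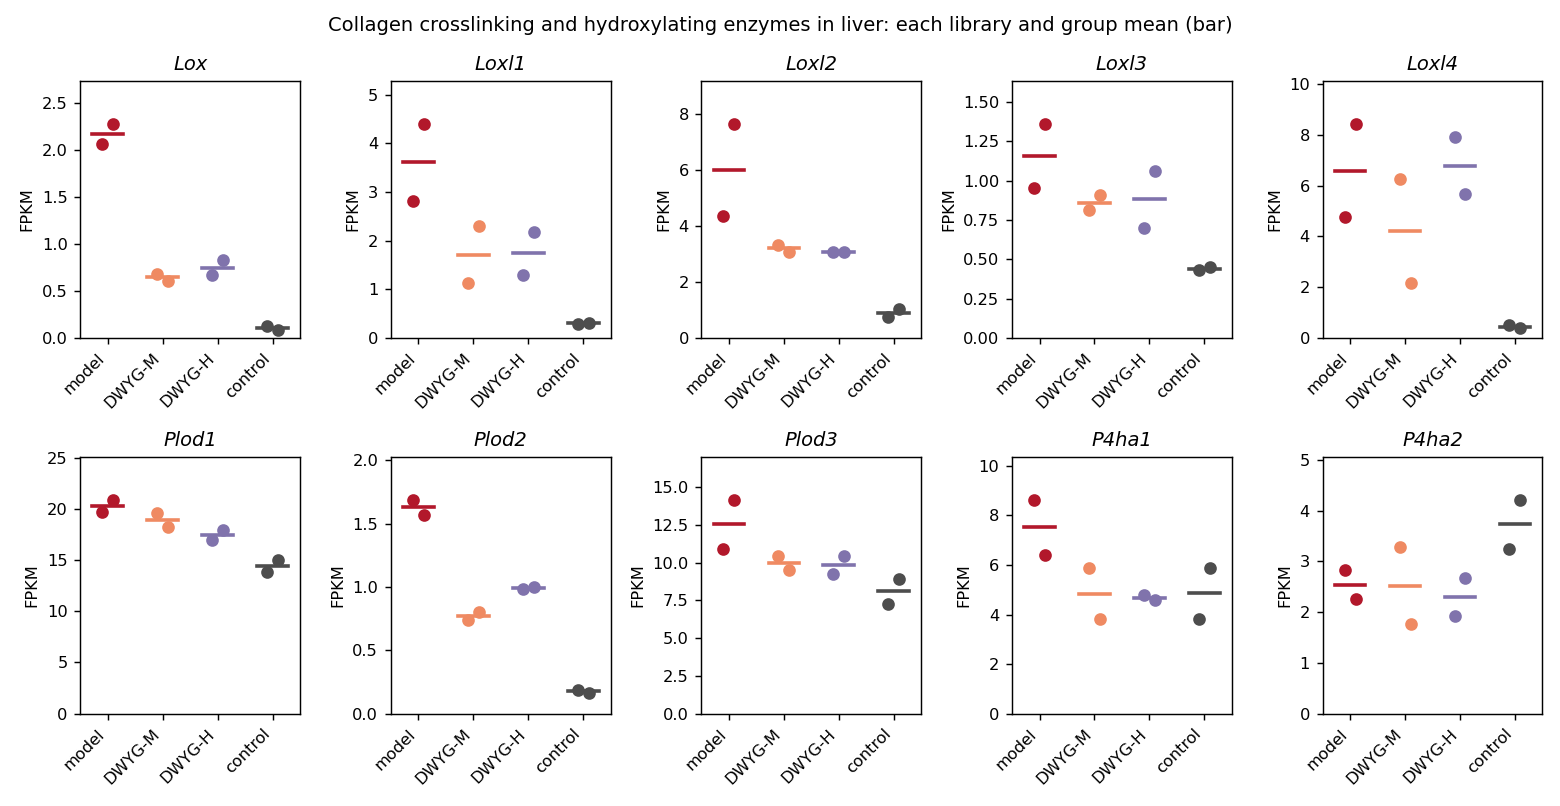
FPKM of the 10 enzymes in each liver library (points) with the mean of the 2 libraries of a group (bar), one panel per gene with its own axis from 0. Lox is at 2.07 and 2.28 in model livers, 0.61 to 0.83 in the DWYG livers and 0.08 and 0.13 in controls, whereas the DWYG and model livers overlap for Loxl4.

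The order of levels changed between groups. In model livers Plod1 was followed by Plod3, and then by P4ha1, Loxl4 and Loxl2, whose ranges overlapped from one to the next. In control livers the lysyl hydroxylases Plod1 and Plod3 and both P4ha subunits held the top 4 places, Loxl2 came next with 0.74 and 1.02 FPKM, and Lox was lowest. In DWYG-M and DWYG-H livers Lox was again the lowest mean of the 10, although its range overlapped that of Loxl3 in DWYG-H.

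Shares within a family do not depend on library scaling. Plod2 made up 4.76% ± 0.677 of the lysyl hydroxylase FPKM in model livers, 2.61% ± 0.279 in DWYG-M, 3.50% ± 0.142 in DWYG-H and 0.777% ± 0.159 in control livers (SD, n = 2 each). P4ha1 made up 74.6% ± 1.03 of both subunits in model livers, 66.3% ± 3.03 in DWYG-M, 67.3% ± 5.78 in DWYG-H and 56.1% ± 2.89 in control livers (SD, n = 2 each). The P4ha1 share was thus highest in the model and lowest in the controls, with no overlap between model and any other group. Among lysyl oxidases, Lox held 11.6% ± 3.11 in model livers, 6.15% ± 0.829 in DWYG-M, 5.69% ± 1.10 in DWYG-H and 4.90% ± 1.87 in control livers (SD, n = 2 each). Loxl3 held 5.99% ± 0.510 in model livers, 8.33% ± 2.42 in DWYG-M, 6.70% ± 2.22 in DWYG-H and 20.3% ± 0.343 in control livers (SD, n = 2 each), with overlap between model and DWYG-H. Loxl4 was the largest part in model (31.8% and 35.0%) and DWYG-H livers (58.0% and 44.2%), against 23.9% and 17.0% in control livers. In DWYG-M livers the Loxl4 share was split, at 51.3% and 23.7%. These shares were not tested.

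**Figure D2:**
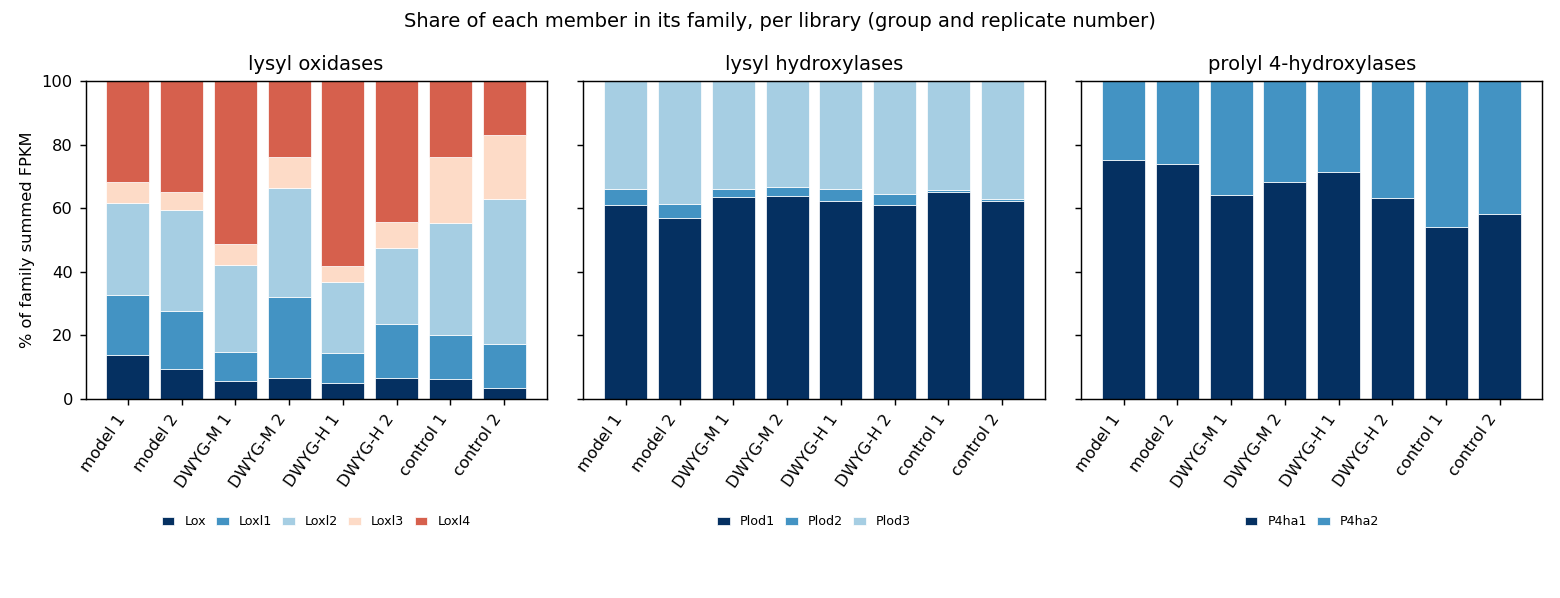
Share of each gene in the summed FPKM of its family (vertical axis, percent) for each of the 8 libraries, with 1 stacked bar per library. Loxl4 takes 31.8% and 35.0% of the lysyl oxidase sum in model livers and 23.9% and 17.0% in controls, and Plod2 is a thin band, widest in the model livers.

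The question of enzyme against substrate was read as a ratio within each library, to the summed FPKM of Col1a1, Col1a2 and Col3a1, the chains of the main scar collagens. That sum was 92.5 and 157 FPKM in model, 39.4 and 43.2 in DWYG-M, 43.9 and 57.7 in DWYG-H, and 6.13 and 7.92 in control livers. The lysyl oxidases together came to 15.8% ± 0.570 of it in model livers, 26.0% ± 7.10 in DWYG-M, 26.7% ± 6.26 in DWYG-H and 31.2% ± 4.11 in control livers (SD, n = 2 each). The lysyl hydroxylases came to 29.1% ± 8.16 in model livers, 72.0% ± 8.37 in DWYG-M, 56.5% ± 7.79 in DWYG-H and 326% ± 31.3 in control livers (SD, n = 2 each). The prolyl 4-hydroxylases came to 8.95% ± 4.87 in model livers, 18.1% ± 7.33 in DWYG-M, 13.9% ± 1.90 in DWYG-H and 121% ± 8.42 in control livers (SD, n = 2 each). In all 3 families both model libraries lay below every other library, narrowly so for the prolyl 4-hydroxylases, where model replicate 1 was at 12.4% and DWYG-H replicate 2 at 12.6%. The Lox ratio to collagen overlapped between all 4 groups, at 1.84% ± 0.557 in model livers, 1.57% ± 0.221 in DWYG-M, 1.48% ± 0.0617 in DWYG-H and 1.57% ± 0.785 in control livers. For Loxl4 the ratio was 5.14% and 5.37% in model livers, 15.9% and 4.98% in DWYG-M, 18.05% and 9.83% in DWYG-H, and 8.16% and 4.80% in control livers. These ratios are descriptions and were not tested.

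**Figure D3:**
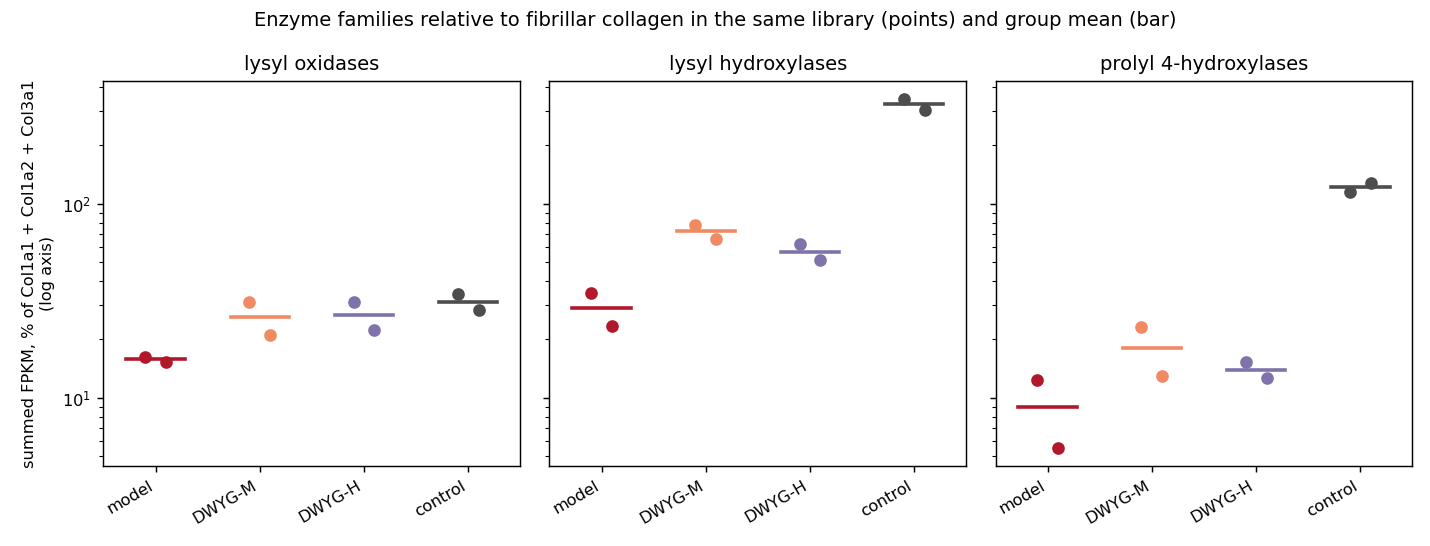
Summed FPKM of each enzyme family as a percent of the summed FPKM of Col1a1, Col1a2 and Col3a1 in the same library (points, log axis) with group means (bars). The lysyl oxidases lie between 15.3% and 34.1% in all 8 libraries, while the lysyl hydroxylases are at 23.3% and 34.8% in model livers and at 304% and 348% in controls.

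The DWYG groups asked whether treatment of injured mice altered these transcripts. No member passed the threshold in DWYG-M vs model or in DWYG-H vs model. In DWYG-M vs model edgeR called 0 of 10 members, against 0.00862% of all genes tested, and 4 had an unadjusted p under 0.05, against 12.6%. In DWYG-H vs model it called 0 of 10, against 0% of all genes, and 4 had an unadjusted p under 0.05, against 8.49%. In FPKM, 8 of 10 members lay below both model livers in both DWYG-M livers, where 25.6% of all genes did, and 7 of 10 in both DWYG-H livers, where 23.2% did. Lox, at 0.61 to 0.83 FPKM in the 4 DWYG livers against 2.07 and 2.28 in model livers, was among the genes with the smallest p in both comparisons. It gave −1.72 in DWYG-M vs model (SE 0.26, 95% interval −2.31 to −1.13, adjusted p = 0.205) and −1.52 in DWYG-H vs model (SE 0.25, 95% interval −2.10 to −0.93, adjusted p = 0.250). DESeq2, whose calls over all genes were far more numerous (206 and 120), called Lox and no other member lower in both, with adjusted p = 0.00115 and 0.00803, the lowest of settings that reached 1.00 and 0.723. The 2 model libraries are shared by both comparisons and by model vs control. These values, and the rises in model vs control, are therefore not independent of each other. Lox passed the filter on low values only through the model libraries, and Loxl3 and Plod2 would not have passed without them. The place of Lox by p and the counts of members are thus descriptions.

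Other members lay in the same direction without a call. Loxl1 gave −1.05 in DWYG-M vs model and −1.02 in DWYG-H vs model, with adjusted p = 0.374 and 0.573. Without model replicate 2 these were −0.57 and −0.54. Loxl2 gave −0.87 and −0.92, with adjusted p = 0.343 and 0.489, and −0.26 and −0.31 without model replicate 2. Plod2 gave −1.03 and −0.65, with adjusted p = 0.228 and 0.526, and its DWYG livers lay below both model livers at either dose. P4ha1 gave −0.56 and −0.61, with adjusted p = 0.456 and 0.605. Loxl4 gave −0.61 in DWYG-M vs model (95% interval −1.74 to 0.52) and 0.08 in DWYG-H vs model (95% interval −1.04 to 1.19), so neither a fall nor a rise could be told at this depth and number of livers. Leaving out 1 library moved its value in DWYG-M vs model between −1.58 (without DWYG-M replicate 1) and −0.0142 (without model replicate 2).

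With the 4 DWYG livers pooled against the model, edgeR called 0 of 10 members higher, against 0.00862% of all genes, and 0 lower, against 0.0258%, and 5 had an unadjusted p under 0.05, against 13.9%. Lox gave −1.62 (SE 0.21, adjusted p = 0.0865), which is 3.07-fold lower, and ranked at place 7 of 11606 genes by p. Lox, Loxl3 and Plod2 would not have passed the filter without the model libraries, so this rank and the counts of members are descriptions. Without model replicate 1 Lox and Loxl2 were called lower (−1.78 and −1.32, adjusted p = 0.0401 for both), and Lox was also called with DESeq2, with no filter on low values and on log2 TPM values. Over all settings its adjusted p ranged between 1.0e-04 and 0.298, and that of Loxl2 between 0.0401 and 0.639. Without model replicate 2 Loxl2 gave −0.29 and Loxl1 −0.56. All members together had a median of −0.47, against −0.02 for all genes tested. In FPKM, the 4 DWYG livers lay below both model livers for 7 of 10 members, where 16.2% of all genes did so. Those members were Lox, Loxl1, Loxl2, Plod1, Plod2, Plod3 and P4ha1. The values for Plod1 (−0.11), Plod3 (−0.30), Loxl3 (−0.36), Loxl4 (−0.27) and P4ha2 (−0.02) had 95% intervals that included 0.

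**Figure D4:**
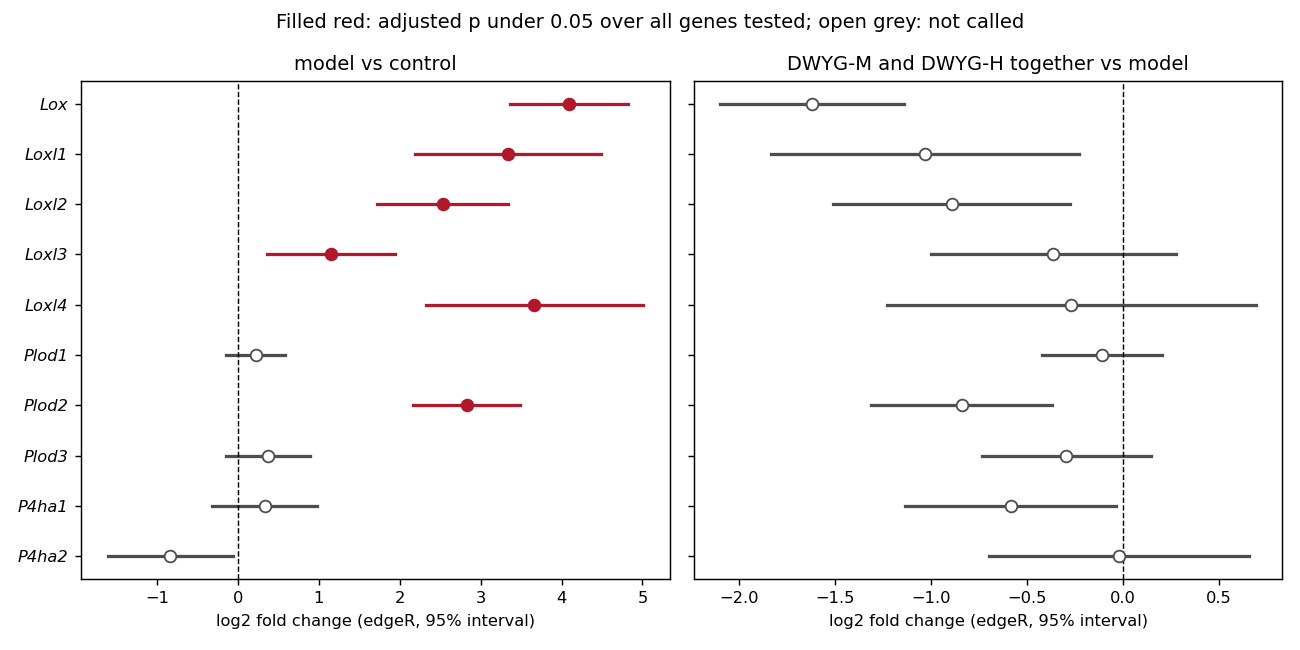
Log2 fold changes from edgeR (points) with unadjusted 95% intervals (lines) for the 10 enzymes in model vs control and for both DWYG groups together vs model. The 6 filled points are Lox, Loxl1, Loxl2, Loxl3, Loxl4 and Plod2 in model vs control, and no point is filled against the model, where Lox lies lowest at −1.62.

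Against control livers, the treated livers still carried higher levels of most lysyl oxidases. In DWYG-M vs control 5 of 10 members were higher, against 4.35% of all genes, and 0 were lower, against 0.603%. In DWYG-H vs control 5 of 10 were higher, against 6.59%, and 0 were lower, against 1.09%. They were Lox, Loxl1, Loxl2, Loxl4 and Plod2 in both. These members, and Loxl3, passed the filter on low values only through injured livers. All counts against control are thus descriptions and are not set against the shares of all genes as support. By edgeR's unadjusted p under 0.05 the counts were 6 of 10 in DWYG-M vs control, against 19.2% of all genes, and 7 of 10 in DWYG-H vs control, against 23.8%. The members added were P4ha2, lower in both (−0.79 and −0.92, adjusted p = 0.255 and 0.147), and Loxl3 in DWYG-H, while DESeq2 called 0 lower in either. In FPKM, 8 of 10 members were higher without overlap in DWYG-M vs control, against 49.2% of all genes, and 0 lower, against 7.98%. In DWYG-H vs control 8 of 10 were higher without overlap, against 46.9%, and 1, P4ha2, was lower, against 10.3%. Lox rose by 2.37 (log2) in DWYG-M vs control (SE 0.33, adjusted p = 0.00982) and by 2.58 in DWYG-H vs control (SE 0.33, adjusted p = 0.00536). Loxl4 rose by 3.05 (SE 0.58, adjusted p = 0.0251) and 3.74 (SE 0.58, adjusted p = 0.0110), Plod2 by 1.79 and 2.18, Loxl1 by 2.29 and 2.32, and Loxl2 by 1.66 and 1.62. Loxl3 gave 0.77 and 0.81 without a call (adjusted p = 0.280 and 0.207). In DWYG-M vs control 0 of these calls remained without control replicate 1 or without control replicate 2, and 2 without either DWYG-M library. In DWYG-H vs control 2 remained without control replicate 1, 0 without control replicate 2, and 3 without either DWYG-H library. Calls over all genes fell as well, to 52 and 39 in DWYG-M vs control and to 151 and 77 in DWYG-H vs control without control replicate 1 and without control replicate 2. The log2 fold changes of Lox stayed between 2.11 and 2.68 in DWYG-M vs control and between 2.32 and 2.88 in DWYG-H vs control when any 1 library of the groups compared was left out.

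The doses were not told apart. In DWYG-H vs DWYG-M 0 of 10 members were called, against 0% of all genes, and 0 had an unadjusted p under 0.05 in edgeR, against 1.66%, while DESeq2 called 0 as well. Lox gave 0.21 (95% interval −0.40 to 0.82), Plod2 gave 0.38 (95% interval −0.20 to 0.96) and Loxl4 gave 0.69 (95% interval −0.44 to 1.82). These intervals admit differences of either sign, and a p that misses the threshold does not show that the doses act alike.

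Other genes of collagen making were read from lists written from general knowledge. In model vs control 15.1% of all genes tested were higher and 7.12% lower. Of 13 tested genes of collagen hydroxylation and folding, 6 were higher and 0 lower there, with a median of 0.54. They included Serpinh1, the collagen chaperone HSP47 (1.73, adjusted p = 0.0141), with 20.2 and 31.6 FPKM in model and 4.61 and 8.47 in control livers. Crtap, the helper of prolyl 3-hydroxylation, rose by 1.35, P3h3 by 1.18 and P3h4 by 2.46. Of 5 tested propeptide processing genes, 3 were higher, among them the procollagen N-proteinases Adamts2 (2.55) and Adamts14 (3.30) and the proteinase enhancer Pcolce (1.66), while its relative Pcolce2 gave −0.39 without a call. Some of these genes, such as P3h4 (0.26 and 0.17 FPKM) and Adamts2 (0.49 and 0.5 FPKM), were under 1 FPKM in both control livers. They passed the filter on low values only through injured livers, so these counts are descriptions.

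The substrates of these enzymes were read in the same way. Of 6 tested fibrillar chains, 5 were higher in model vs control, with a median of 3.36, including Col1a1 (4.82), Col1a2 (3.99), Col3a1 (3.59) and Col5a2 (3.12). Over all genes tested, 15.1% were higher there. All 4 tested collagen IV chains were higher (Col4a1, 2.17; Col4a2, 2.01; Col4a3, 4.55; Col4a5, 3.68). Of 11 tested elastic fibre genes, 9 were higher, with a median of 2.67, including the lysyl oxidase substrate Eln (3.74) and Fbn1, Fbln1 and Fbln2 (2.98, 3.57 and 2.75). Of 4 other tested crosslinking enzymes only Pxdn, the peroxidase that forms sulfilimine bonds in collagen IV, was higher (0.84, adjusted p = 0.00859), while the transglutaminase Tgm2 gave 0.95 (adjusted p = 0.0789), Tgm1 1.01 and Qsox1 −0.08. In both DWYG groups together vs model edgeR called 0 genes of these lists, with medians of −1.29 for fibrillar chains, −0.81 for collagen IV, −0.97 for elastic fibres, −0.31 for propeptide processing and −0.25 for hydroxylation and folding. At edgeR's unadjusted p under 0.05, 5 of 6 fibrillar chains, 3 of 4 collagen IV chains and 8 of 11 elastic fibre genes were lower there, and DESeq2 called 5, 2 and 5 of them lower. By that unadjusted p, 13.9% of all genes tested changed in either direction. Values of that comparison were −1.59 for Col1a1 (adjusted p = 0.150), −1.59 for Eln (adjusted p = 0.101) and −1.03 for Pcolce (adjusted p = 0.101). Some genes of these lists, such as Col1a1 (0.68 and 0.82 FPKM) and Eln (0.75 and 0.66 FPKM), were under 1 FPKM in both control livers. They passed the filter on low values only through injured livers. All counts of these lists are thus descriptions and are not set against the shares of all genes as support.

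Markers of other cell types were read beside the members. In bulk liver, fewer cells of a type and less RNA per cell cannot be told apart. Some markers, such as Timp1 (0.1 and 0.21 FPKM) and Cd34 (0.52 and 0.54 FPKM), were under 1 FPKM in both control livers. They passed the filter on low values only through injured livers. The counts of markers are thus descriptions and are not set against the shares of all genes as support. Of 14 tested stellate and myofibroblast markers, 9 were higher in model vs control and 1 lower, such as Timp1 (5.45) and Pdgfrb (2.08), and their summed FPKM was 138 to 156 in model, 112 to 113 in DWYG-M, 91.2 to 107 in DWYG-H and 76.9 to 92.0 in control livers. Of 8 tested portal fibroblast and mesothelial markers, 6 were higher, such as Cd34 (3.39) and Pi16 (3.68), with sums of 30.1 to 34.0 in model, 16.3 to 16.4 in DWYG-M, 16.8 to 21.8 in DWYG-H and 3.82 to 5.01 in control livers. Of 8 tested cholangiocyte markers, 7 were higher, such as Krt19 (3.21), with sums of 337 to 473 in model, 196 to 228 in DWYG-M, 242 to 288 in DWYG-H and 46.0 to 49.0 in control livers. Spp1 made up most of each of these sums, with 293 and 430 FPKM in model and 38.4 and 33.7 in control livers. In both DWYG groups together vs model Spp1 gave −0.69, Krt19 −2.16, Krt7 −1.92 and Epcam −1.60, none called by edgeR. The cholangiocyte sums thus describe mainly Spp1. Endothelial markers had 2 of 10 higher, macrophage markers 5 of 10, lymphocyte markers 0 of 4, proliferation markers 8 of 8 and hepatocyte markers 0 of 10, with 1 lower (Cyp8b1). Over all genes tested, 15.1% were higher and 7.12% lower in model vs control, and the endothelial count is near the former share. At an unadjusted p under 0.05 in edgeR, 5 of 10 endothelial markers were higher and 0 lower, against 35.9% of all genes in either direction. DESeq2 called 0 lymphocyte and 0 hepatocyte markers higher, and 2 hepatocyte markers and 1 macrophage marker lower. At an unadjusted p under 0.05 in edgeR, 1 lymphocyte and 0 hepatocyte markers were higher. By the same rule 2 hepatocyte markers and 1 macrophage marker were lower, against 35.9% of all genes in either direction. In both DWYG groups together vs model edgeR called 0 markers of any list, while at an unadjusted p under 0.05 7 of 8 cholangiocyte, 8 of 14 stellate, 6 of 8 portal fibroblast, 7 of 8 proliferation and 6 of 10 macrophage markers were lower and 2 of 10 hepatocyte markers higher, against 13.9% of all genes in either direction. DESeq2 called 5 cholangiocyte, 4 stellate, 2 portal fibroblast, 2 proliferation and 1 macrophage marker lower and 1 hepatocyte marker higher there. Lymphocyte markers summed to 39.4 FPKM in DWYG-H replicate 2 and to at most 20.1 elsewhere. No marker of any list was at 0 in both libraries of a group. The part of these cell types in the enzyme levels was not tested.

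Over the 8 libraries, the members fell into those that tracked one another and those that did not. Lox and Plod2 had a Pearson r of 0.98 in log2 CPM, Loxl1 and Loxl3 0.95, and Plod1 and Plod3 0.93, whereas P4ha2 ran against Plod2 (−0.77). Among genes with a mean of at least 5 FPKM, the most alike to Lox was the intermediate filament gene Vim (0.995), to Loxl1 Irf7 (0.990), to Loxl2 the myosin light chain gene Myl12b (0.997) with Sparc and Col4a2 just behind (0.996 each), and to Plod2 the cyclophilin gene Ppic (0.993). Loxl3 was most like Ski (0.984), Loxl4 most like G6pdx (0.990), which encodes the first enzyme of the pentose phosphate pathway, and P4ha1 most like Eaf1 (0.925). Plod3 was nearest to Slc35f6 (0.983) and P4ha2 to Tmem248 (0.967). These correlations describe 8 libraries in 4 groups, and libraries of a group are not independent points of such a pattern.

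Promoters in the RefSeq table (assembly GRCm38.p6, another build than the GRCm39 of the authors) were at hand for 5 of the 10 members: Loxl4, Plod1, Plod3, P4ha1 and P4ha2. Each window held 250 bases before the gene start and 50 after it. The hypoxia response core (ACGTG or GCGTG), the TEAD motif GGAATG, through which YAP acts, and the AP-1 motif TGANTCA were searched on both strands, and a palindromic CACGTG would count once on each. GCGTG was found in all 5 windows, where 32.4% of the 32851 windows in the table hold it, and ACGTG in 3 of 5 (P4ha1, P4ha2 and Plod3), where 19.6% do. GGAATG and TGANTCA were in 0 of 5, where 14.7% and 7.81% of windows hold them. The windows are rich in G and C (75.0% in Loxl4, 70.3% in both P4ha genes, 64.3% in Plod1 and 53.3% in Plod3). A match is a run of letters and not a bound site. The upstream 250 bases are shown 5′ to 3′ on the gene's strand for the called oxidase with a promoter and for both prolyl hydroxylase subunits, with matches to either hypoxia core in capitals, in the order Loxl4 (minus strand, chr19:42612807-42613056), P4ha1 (plus strand, chr10:59323046-59323295) and P4ha2 (plus strand, chr11:54100674-54100923).
Loxl4: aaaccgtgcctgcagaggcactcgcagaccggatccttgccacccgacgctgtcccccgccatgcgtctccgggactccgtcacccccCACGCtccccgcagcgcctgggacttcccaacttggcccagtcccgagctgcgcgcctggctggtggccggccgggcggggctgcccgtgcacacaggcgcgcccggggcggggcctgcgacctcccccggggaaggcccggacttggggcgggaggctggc
P4ha1: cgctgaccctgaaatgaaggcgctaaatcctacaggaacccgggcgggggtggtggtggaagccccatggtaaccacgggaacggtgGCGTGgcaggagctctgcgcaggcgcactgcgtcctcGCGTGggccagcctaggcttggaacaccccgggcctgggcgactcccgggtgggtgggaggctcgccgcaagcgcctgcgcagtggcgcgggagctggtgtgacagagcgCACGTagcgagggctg
P4ha2: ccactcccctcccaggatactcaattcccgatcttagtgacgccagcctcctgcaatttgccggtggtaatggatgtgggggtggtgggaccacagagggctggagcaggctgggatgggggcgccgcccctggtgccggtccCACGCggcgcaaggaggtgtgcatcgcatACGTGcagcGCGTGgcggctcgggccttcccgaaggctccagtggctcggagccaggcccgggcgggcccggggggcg
This stretch holds 1 match in Loxl4 and 3 matches each in P4ha1 and P4ha2. No promoter was at hand for the other members called in model vs control, and a relation of matches to levels was not tested.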

How the data were processed

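Total RNA of 8 livers was made into libraries with the SMART-Seq mRNA LP chemistry of Takara, per the labels' protocols. Read mapping used GRCm39 according to the submitters' processing notes. The tools of mapping and counting, their annotation and the use of strand were not stated. The authors deposited FPKM values, TPM values and read counts per gene, named so per the file headers. The deposited read counts hold decimals (89.8% to 91.5% per library were whole within 0.005), so they are estimated counts made by the authors' counting step, and they were rounded here. TPM values of the deposited table served only in alternatives, and 24 other columns (normalized counts and group averages) were not used.

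Genes with at least 1 FPKM in at least 2 libraries (11606 of 17164) were tested with edgeR 4.0.16 in R 4.3.3 (quasi-likelihood, TMM scaling, 1 model of 4 groups, 4 residual degrees of freedom). P-values were adjusted after Benjamini-Hochberg over these genes, and a call is an adjusted p under 0.05. SEs derive from the F statistic, and 95% intervals are unadjusted. Alternatives used DESeq2 1.42.0 and limma 3.58.1. Libraries are separate mice, with 2 per group, so a p rests on few animals.

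The members, lists and tests were chosen with earlier results of these data known. Named genes are all 10 members, the 4 genes of each list with the smallest p in model vs control, the 3 genes most alike to each member (the nearest is printed, with all 3 for Loxl2; that of Plod1 is not reported here), and 3 standard YAP targets.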

Additional observations from a re-analysis of the deposited data

How the results depend on the processing

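Across all comparisons, other settings gave 968 log2 fold changes of the 10 members. Of the 211 that belong to called members, 0 changed sign. Of the 757 that belong to uncalled members, 44 did, and none of those exceeded 0.47 in size. Under a minimum of 5 FPKM (in 2 or more libraries) most members were left out of the fit, and 1 member was higher in model vs control, 1 in DWYG-M vs control and 1 in DWYG-H vs control. DESeq2 called 1 member lower in DWYG-M vs model, 1 in DWYG-H vs model and 1 in both DWYG groups together vs model. In that last comparison no filter on low values and limma on log2(TPM + 1) each called 1 lower, and leaving out 1 library gave 0 to 2. On log2(FPKM + 1) values 3 members were higher in DWYG-M vs control. Leaving out 1 library gave 4 to 6 higher members in model vs control, 0 to 2 in DWYG-M vs control and 0 to 3 in DWYG-H vs control; the lone library is then assumed to vary like the other groups.

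Signs turned for uncalled members against the model. Leaving out 1 library, Loxl4 in DWYG-H vs model ranged between −0.35 and 0.67. In both DWYG groups together vs model the ranges were −0.68 to 0.0344 for Loxl3, −0.75 to 0.33 for Loxl4, −0.24 to 0.0419 for Plod1, −0.56 to 0.0181 for Plod3 and −0.28 to 0.17 for P4ha2, and P4ha2 gave 0.0189 with no filter. In TPM in place of FPKM, the log2 ratio of summed levels in model over control was 0.93 for lysyl hydroxylases (0.60 in FPKM) and 0.56 for prolyl 4-hydroxylases (0.23 in FPKM). The median gene of model vs control shifted too, by 0.50 on log2(TPM + 1) and 0.21 on log2(FPKM + 1) values. The cause of these changes was not tested. The stricter FPKM minimum removes members from the fit. Leaving out a library leaves fewer samples, and the values also depended on which library was left out.

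Deviations of same-numbered libraries correlated at −0.14 for model with DWYG-M and at 0.05 to 0.26 for other pairs of groups. With 2 libraries per group these values cannot tell whether same-numbered libraries shared a step of processing. With a replicate block 6 members were higher in model vs control, 0 were called in each comparison with the model, and 4 and 5 were higher in DWYG-M and DWYG-H vs control. A crossed pairing for DWYG-M vs model, chosen after seeing the data, called 0 members and 1 gene in all. Over all genes, model vs control had 2582 calls, against 5448 on log2 TPM, 1331 with the stricter minimum and 1669 with only its groups fitted. DESeq2 called 206, 120 and 321 genes in DWYG-M, DWYG-H and both together vs model, against 1, 0 and 4 by edgeR, and 1007 and 1385 in DWYG-M and DWYG-H vs control, against 575 and 892. On log2 TPM, 98.1% and 98.0% of the calls in those last comparisons were higher, against 87.8% and 85.8% by edgeR.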

Other observations

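The hydroxylases need ascorbate and iron. A list of cofactor supply genes, which also holds the copper pump Atp7a, showed no call by edgeR. Of 10 tested genes, 0 were called by edgeR in model vs control in either direction, with a median of −0.09. Over all genes tested, 15.1% were higher and 7.12% lower. At edgeR's unadjusted p under 0.05, 2 were higher and 1 lower, against 35.9% of all genes in either direction, and DESeq2 called 1 lower. The nearest to the threshold were the copper-containing ferroxidase Heph (1.03, adjusted p = 0.0501), the copper pump Atp7a (0.56, adjusted p = 0.0839) and Rgn, the gluconolactonase of ascorbate synthesis (−0.94, adjusted p = 0.0998), followed by Akr1a1 (−0.30, adjusted p = 0.218). The summed FPKM of the list was 1391 and 843 in model livers, 1445 and 1633 in DWYG-M, 1395 and 1542 in DWYG-H, and 1392 and 1328 in control livers, so that model replicate 2 was lowest. Rgn and Akr1a1 made up most of each sum, and Rgn was at 707 and 267 FPKM in the model livers.

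Hypoxia response genes, among which Lox, Plod2, P4ha1 and P4ha2 are often counted, were read as a list without them. Of 18 tested, 3 were higher in model vs control (Ndrg1, 1.41; Pfkfb4, 1.47; Slc2a1, 0.91) and the mitophagy gene Bnip3 was lower (−0.81), with a median of 0.14, against 15.1% higher and 7.12% lower over all genes tested. At an unadjusted p under 0.05 in edgeR, 4 were higher and 4 lower, against 35.9% of all genes in either direction. Pfkfb4 was under 1 FPKM in both control livers and passed the filter on low values only through injured livers. In both DWYG groups together vs model edgeR called 0 of the 18, against 0.00862% of all genes higher and 0.0258% lower, and DESeq2 called 0. There, 1 was higher and 1 lower at an unadjusted p under 0.05 in edgeR, against 13.9% of all genes in either direction. The YAP targets Ccn1, Ccn2 and Ankrd1 gave −0.35, 2.11 and 3.91 in model vs control (adjusted p = 0.718, 0.113 and 0.00210), where only Ankrd1 was called. In both DWYG groups together vs model they gave −1.09, −0.61 and −1.98 (adjusted p = 0.383, 0.743 and 0.101).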
